A study of Mus musculus with 6 samples.

Results

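AP-1 is a dimeric transcription factor built from members of the Fos, Jun and ATF families. Some of its genes are among the first that cells transcribe after growth factors, stress or injury, without new protein synthesis. Chromatin accessibility at 10 AP-1 and immediate early genes was examined in mouse kidney. They were Fos, Fosb, Fosl1 and Fosl2 of the Fos family and Jun, Junb and Jund of the Jun family. The others were the ATF family gene Atf3 and the immediate early genes Egr1 and Ier2. The genes were listed by name. At each gene, every interval of the peak list that overlapped the stretch from 3 kb upstream of the gene start to the gene end was taken (GENCODE M39, genome build GRCm39), which gave 46 of 279569 intervals, at 10 of 21757 protein-coding genes.

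The list came from ATAC-seq, in which Tn5 transposase inserts sequencing adapters into open chromatin, on nuclei of kidney cortex. The labels gave 3 WT libraries, from Acly fl/fl littermates without Cre according to the methods, and 3 Acly cKO libraries, from Acly fl/fl mice with Ksp-Cre, which the Cdh16 promoter drives in tubular epithelium. ACLY, the enzyme deleted, makes acetyl-CoA from citrate. All 6 libraries carried the treatment label Control, no age was given in the labels, and WT libraries were in batches 1 and 2 and Acly cKO libraries in batches 4 and 5, so a difference of batch and 1 of genotype cannot be told apart. The peak names in the list refer to all libraries together and the list has no column for a library, so each gene has 1 pooled value, with no replicate error and no comparison between genotypes. Which libraries entered the pool is not known from the files: the study's design also counts earlier wild-type libraries, which were not analysed here, so the pool may hold more than these 6. In bulk cortex, fewer cells with an open site and less accessibility per cell cannot be told apart.

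The AP-1 dimer binds the TPA response element (TRE) and, in some pairings, the cAMP response element (CRE). Fos proteins have to pair with a partner to bind DNA, Jun proteins can also pair with each other, and the response of Fos and Egr1 to growth factors runs through serum response factor, which binds the CArG box together with ternary complex factors of the Elk family. In the kidney, Fos, Jun, Egr1 and Atf3 are known as early transcripts of tubular injury.

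All 10 genes had an interval over the gene start, against 14878 of 21757 protein-coding genes (68.4%). A fold enrichment of at least 5 over background was reached by the start interval of 10 of the 10 genes (61.7% of protein-coding genes), and of at least 20 by 9 of the 10 (46.6%), the exception being Fosl1. Fold enrichment here is the value of the highest summit of the interval. Every fold in the list was a whole multiple of 0.06547, which is what a constant background of 14.27 reads and 1 added read give, so the reads stacked at each summit could be recovered. The 95% Poisson intervals below come from those reads and cover counting error only.

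The median fold of the 10 start intervals was 52.4, with quartiles of 40.1 and 59.8. Over the 14878 protein-coding genes with a start interval it was 31.6, with quartiles of 15.1 and 49.6. Jun had the highest value, 78.0 (73.7 to 82.6), above 95.3% of the protein-coding start intervals. Junb followed at 68.3 (64.2 to 72.6), and the counting intervals of both were apart from each other and from the rest. Egr1 (59.8), Jund (59.7), Fosl2 (54.3), Fosb (50.6), Ier2 (44.5) and Fos (38.6) formed a graded series in which each gene overlapped its neighbour in counting error. Atf3 at 21.8 (19.5 to 24.3) and Fosl1 at 10.3 (8.80 to 12.1) lay below and apart, Fosl1 above only 18.6% of the protein-coding start intervals.

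**Figure D1:**
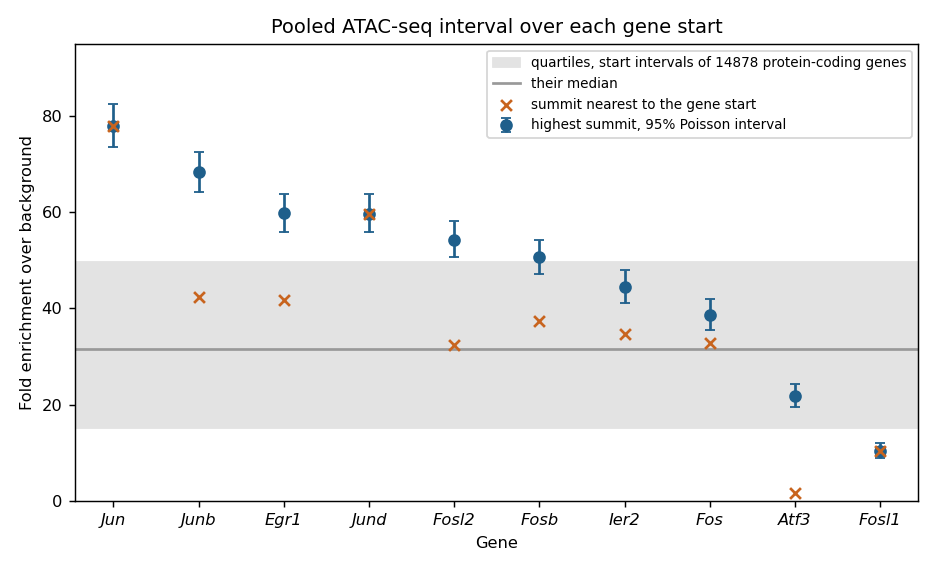
Fold enrichment of the interval over the start of each gene in the pooled peak list (y axis, linear; genes on the x axis): circles show the highest summit with its 95% Poisson counting interval, crosses the summit nearest to the gene start, and the grey band and line the quartiles and median over 14878 protein-coding genes. Jun stands at 78.0 and Fosl1 at 10.3, and the cross of Atf3 lies at 1.70.

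Start intervals were wide. Their median width was 7334 bp with 17 summits, against 3060.5 bp with 7 summits over all protein-coding start intervals and 3455 bp over those of genes under 10 kb. The upper quartile of these short genes was 6104.5 bp. Wide start intervals were not particular to the 10 genes. Among immediate early genes outside the list, Zfp36 had 23340 bp and Ier3 21547 bp, while Egr4 had 511 bp. The width was at least 5000 bp at 7 of the 10 genes (15.6% of protein-coding genes), the others being Fosb, Fosl1 and Atf3. Except at Atf3 and Egr1, the start interval also covered the start of a noncoding gene. Its summits can therefore not all be assigned to the listed gene from these data. The share of all protein-coding start intervals that cover a noncoding start was not calculated. Jun, Junb, Jund and Ier2 lay whole inside 1 interval, 4 of 10 genes against 3.37% of protein-coding genes. These genes are short, and among genes under 10 kb, which include 8 of the 10, 707 of 7031 (10.1%) lay inside 1 interval. Intervals covered a median of 91.8% of the gene, against 75.1% over genes under 10 kb with a start interval.

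**Figure D2:**
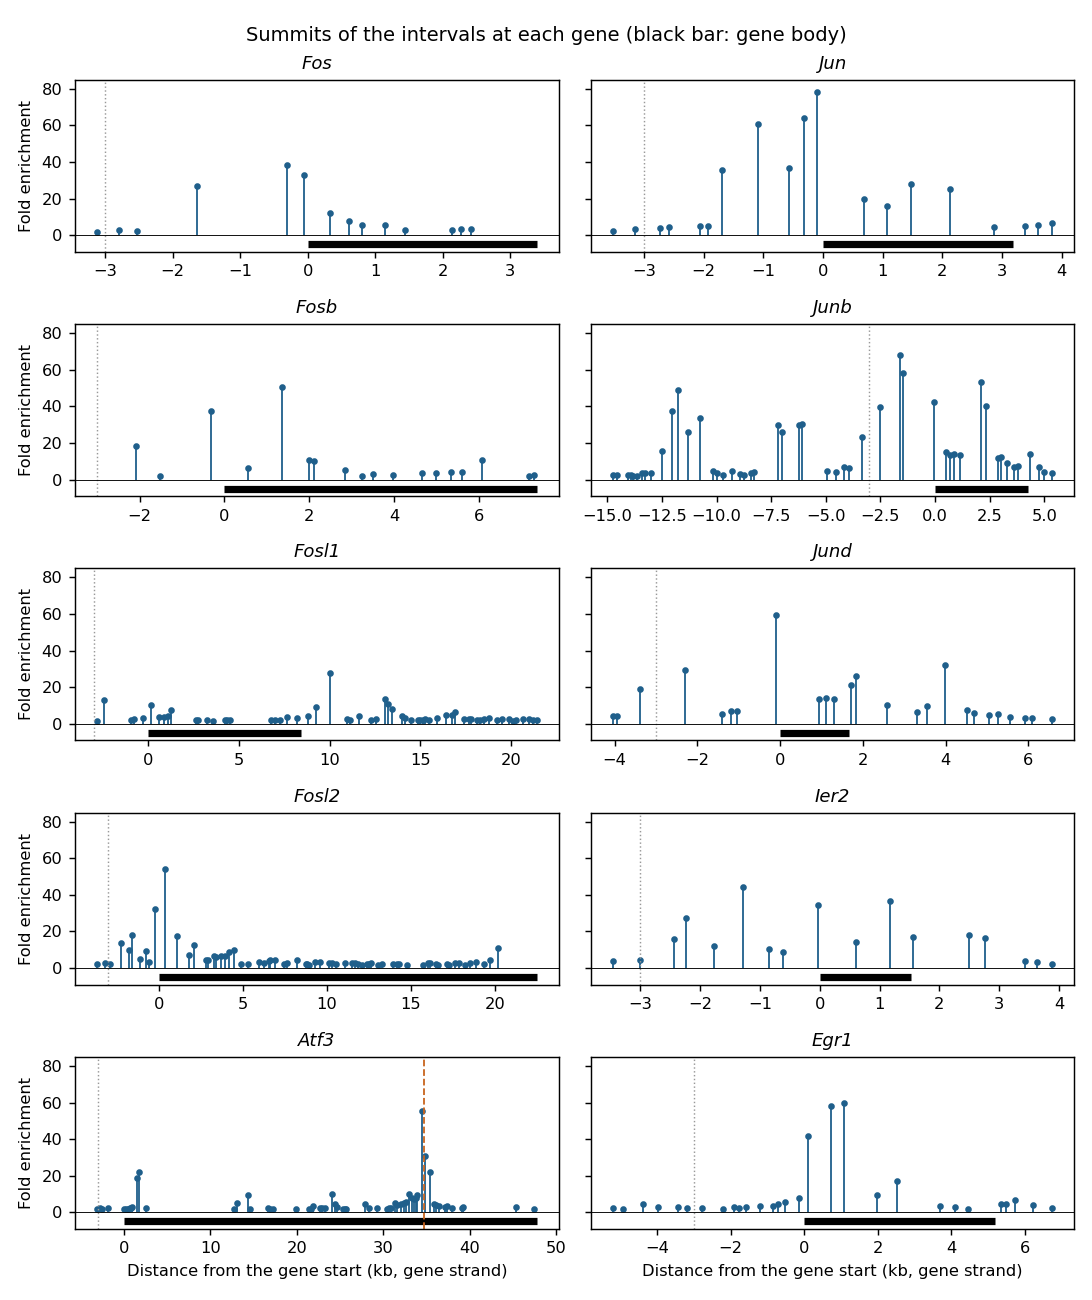
Summits of all intervals counted at each of the 10 genes, by distance from the gene start in kb along the gene's strand (x axis, own range in each panel) and fold enrichment (y axis, linear). The black bar is the gene body, the dotted line marks 3 kb upstream and the dashed line in the Atf3 panel the start of the canonical transcript; the highest Atf3 summit, at 55.4-fold, lies beside that line and not at the gene's 5′ end.

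Fos (ENSMUSG00000021250.15, chr12:85520658-85524047, plus strand) encodes the founding Fos protein. It had 1 interval, chr12:85517485-85523401, 5917 bp wide. Its highest summit lay 312 bp before the gene start and reached 38.6-fold (35.6 to 41.9; 589 reads). A summit 54 bp upstream reached 32.8-fold and another 1638 bp upstream reached 27.0-fold, while the summits inside the gene did not exceed 12.4-fold, at 337 bp in intron 1. The highest summit was thus in the upstream region and not in the gene body. Around it lies a match to the CArG box, whose first base is 9 bases from the summit position and 303 bp upstream of the gene start. The window is shown because it holds the CArG box beside the highest summit of the gene; the stretch next to the start shows the TATA box and a CRE core. In every sequence printed here, read 5′ to 3′ along the gene, capitals mark matches on either strand to CRE, CRE core, TRE, CArG box, TATA box, CCAAT box or the Jun-type site described for Jun. The window spans chr12:85520306-85520386 and the upstream stretch, taken from the RefSeq promoter table of GRCm38.p6 and matched exactly to GRCm39, spans chr12:85520544-85520663.
Fos summit window: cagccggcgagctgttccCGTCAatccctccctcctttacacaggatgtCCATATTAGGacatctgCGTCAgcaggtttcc
Fos upstream stretch: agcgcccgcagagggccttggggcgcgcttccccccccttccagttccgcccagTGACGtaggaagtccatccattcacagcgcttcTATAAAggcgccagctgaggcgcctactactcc

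Fosb (ENSMUSG00000003545.4, chr7:19036621-19043976, minus strand) encodes a Fos protein known for its long-lived splice form in neurons. It had 4 intervals. The start interval, chr7:19040242-19045182, was highest inside the gene, 1360 bp into it in intron 1, at 50.6-fold (47.1 to 54.3; 772 reads). The summit 307 bp upstream of the start stood at 37.4-fold, lower than the intronic one with reads of 571 against 772. A separate interval with its summit 2094 bp upstream reached 18.5-fold, one over the 3′ UTR in exon 4 reached 10.5-fold, and the remaining interval 2.29-fold. As at Fos, a CArG box lay under the upstream summit, 41 bases from it, and the window chr7:19044223-19044343 shows it with a CRE core. The stretch before the RefSeq start, chr7:19043971-19044090, holds 1 CRE core.
Fosb upstream summit window: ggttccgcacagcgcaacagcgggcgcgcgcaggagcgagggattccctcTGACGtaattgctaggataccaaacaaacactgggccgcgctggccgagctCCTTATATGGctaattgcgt
Fosb upstream stretch: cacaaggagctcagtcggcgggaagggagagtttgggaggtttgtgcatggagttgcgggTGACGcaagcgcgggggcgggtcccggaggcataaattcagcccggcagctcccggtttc

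Fosl1 and Fosl2 encode the Fos-related antigens, which lack the strong activation domain of Fos. By start interval, Fosl1 was the lowest of the Fos family, while Fosl2 overlapped Fosb in counting error. Fosl1 (ENSMUSG00000024912.7, chr19:5497575-5505974, plus strand) had 8 intervals, and the one over its start, chr19:5497170-5499133, reached 10.3-fold with 157 reads, at a summit 156 bp into the gene in the 5′ UTR of exon 1. A second interval, with its summit 2426 bp upstream, reached 13.2-fold. The highest value counted for Fosl1, 27.8-fold, belongs to a 14786 bp interval that enters the gene from downstream and has its summit 10011 bp from the Fosl1 start, outside the gene and 336 bp from the start of Ccdc85b. The other 5 intervals, 1 of them upstream and 4 in the gene body, lay between 1.77-fold and 2.55-fold.

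Fosl2 (ENSMUSG00000029135.12, chr5:32292707-32315186, plus strand) had 7 intervals. Its start interval, chr5:32288814-32297785, was 8972 bp wide with 23 summits and reached 54.3-fold (50.6 to 58.1; 828 reads) at 398 bp into the gene, in the 5′ UTR of exon 1. A summit 212 bp upstream stood at 32.5-fold. The RefSeq start of Fosl2 lies 1109 bp inside the GENCODE gene, so the highest summit is between both annotated starts. Farther in, a 7476 bp interval with 25 summits filled much of intron 1 at no more than 4.39-fold, and an interval over the 3′ UTR in exon 4 reached 10.9-fold at 20196 bp. The remaining 4 lay between 1.70-fold and 3.01-fold. A TRE match lay 93 bases from the highest summit.

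Jun (ENSMUSG00000052684.6, chr4:94937271-94940459, minus strand), an intronless gene, encodes the main partner of Fos. A single interval, chr4:94936222-94944219, covered all of it and 19 summits. The highest summit, 100 bp upstream of the start, stacked 1191 reads and reached 78.0-fold, the highest value at any of the 10 genes, with a −log10 q of 1777. Further upstream, summits at 315, 568, 1086 and 1693 bp reached 64.1-fold, 36.5-fold, 60.9-fold and 35.6-fold. Inside the gene, the summits reached at most 27.9-fold, in the coding exon at 1483 bp. Accessibility in the Jun interval ran from the start to 1693 bp upstream in several separate summits. The interval also covers the start of the noncoding gene Gm12703, and the stretch printed below overlaps exons of the noncoding gene Junos. Jun is known to be activated through a near-consensus AP-1 site of its own promoter, TGACATCA, which was added to the motif search after the data were seen. It was found 45 to 38 bases before the RefSeq start, between a CCAAT box and the start, in the stretch chr4:94940460-94940579, which also includes the position of the highest summit. The stretch is shown because it holds both.
Jun upstream stretch: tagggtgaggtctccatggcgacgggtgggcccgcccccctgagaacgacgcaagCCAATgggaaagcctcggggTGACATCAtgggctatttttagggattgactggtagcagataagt

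Junb (ENSMUSG00000052837.9, chr8:85701113-85705359, minus strand), whose protein often acts against Jun, lay inside the widest start interval of the 10, chr8:85699703-85720198, of 20496 bp with 50 summits. That interval also covers the start of Hook2, so its far part cannot be assigned to Junb from these data. The highest summit, 1597 bp upstream, reached 68.3-fold with 1042 reads, and its neighbour at 1474 bp reached 58.0-fold. The summit at the start itself, 53 bp upstream, stood lower at 42.4-fold. A further pair lay 2087 bp and 2315 bp from the start, beyond the 3′ end of the canonical transcript, at 53.0-fold and 40.3-fold, while the coding exon between did not exceed 15.1-fold. The highest summits of Junb were on both sides of its canonical transcript. The summits of that downstream pair lie inside the annotated gene, and the transcript Junb-202 starts between them, at 2188 bp. CArG boxes lay under both flanking groups, 10 bases from the downstream summit and 36 bases from the summit 1474 bp upstream. Far upstream, a summit 6994 bp from the start at 26.3-fold had 3 matches to the TRE within 100 bases of it. The windows are chr8:85703232-85703312 downstream, chr8:85706773-85706893 upstream and chr8:85712273-85712433 far upstream, and the stretch before the RefSeq start is chr8:85705378-85705497. The far window lies in an exon of the noncoding gene Gm56846.
Junb downstream summit window: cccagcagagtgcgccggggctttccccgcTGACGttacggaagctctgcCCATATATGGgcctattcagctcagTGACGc
Junb upstream summit window: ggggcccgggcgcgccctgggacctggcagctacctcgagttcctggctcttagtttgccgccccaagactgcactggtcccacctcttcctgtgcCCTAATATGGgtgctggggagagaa
Junb far upstream summit window: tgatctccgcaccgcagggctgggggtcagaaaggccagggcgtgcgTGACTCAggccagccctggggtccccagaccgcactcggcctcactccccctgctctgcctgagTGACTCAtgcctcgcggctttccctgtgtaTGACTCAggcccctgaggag
Junb upstream stretch: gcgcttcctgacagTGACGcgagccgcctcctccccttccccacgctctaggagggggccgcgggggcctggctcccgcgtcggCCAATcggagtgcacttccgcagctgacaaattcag

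Jund (ENSMUSG00000071076.9, chr8:71151599-71153265, plus strand) encodes the Jun protein that is present in most resting cells. Its interval, chr8:71147286-71158315, covered the whole gene and the start of Iqcn. The highest summit was 99 bp upstream at 59.7-fold (55.9 to 63.7; 911 reads), and no other summit came near it. The next were 31.9-fold at 3995 bp, beyond the gene, 29.6-fold at 2299 bp upstream and 26.2-fold at 1839 bp. The coding exon stayed at or below 14.0-fold, so Jund, unlike Jun, had a single dominant summit next to its start. The window around it, chr8:71151460-71151540, has a CRE core and a CCAAT box, and that around the summit beyond the gene, chr8:71155554-71155634, has a TRE 12 bases from the summit. Both are shown because they hold different response elements in the same interval. That interval also covers the start of Iqcn, so the site beyond the gene cannot be assigned to Jund from these data. The window next to the start lies in exons of the noncoding genes Gm64347 and Gm64349.
Jund summit window: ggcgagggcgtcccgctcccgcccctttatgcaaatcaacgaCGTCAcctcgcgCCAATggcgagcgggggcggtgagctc
Jund downstream summit window: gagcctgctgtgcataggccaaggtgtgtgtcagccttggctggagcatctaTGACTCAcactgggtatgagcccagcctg

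Atf3 (ENSMUSG00000026628.15, chr1:190902493-190950241, minus strand) encodes a stress-induced factor that pairs with Jun proteins and can repress. At 47749 bp it is the longest of the 10 genes, and it had 19 of the 46 intervals. The annotated 5′ end and the accessible start did not coincide. Over the 5′ end, where 2 GENCODE transcripts start, the interval chr1:190948045-190950311 had its nearest summit at 1.70-fold and none above 2.03-fold within 500 bp, and its value of 21.8-fold came from a summit 1709 bp into the gene. The canonical transcript starts 34704 bp downstream, and the interval over that start, chr1:190912657-190919924, was 7268 bp wide with 21 summits and reached 55.4-fold (51.7 to 59.2; 845 reads). That value is above 99.0% of all intervals by q, and in the order of start intervals it would place Atf3 between Jund and Fosl2. Between both starts, intervals reached 10.3-fold at 24035 bp, 9.30-fold at 14323 bp and 5.17-fold at 13036 bp, and the other 14 intervals of the gene lay between 1.90-fold and 4.45-fold. The stretch before the RefSeq start, chr1:190915531-190915650, holds a CRE core on the opposite strand, and the window at the 1709 bp summit, chr1:190948492-190948572, holds a TRE 24 bases from it.
Atf3 upstream stretch at the canonical start: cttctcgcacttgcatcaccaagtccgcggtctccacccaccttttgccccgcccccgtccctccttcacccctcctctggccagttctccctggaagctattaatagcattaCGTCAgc
Atf3 summit window near the 5′ end: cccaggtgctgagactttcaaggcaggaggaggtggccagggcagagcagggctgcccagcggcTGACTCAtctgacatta

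Ier2 (ENSMUSG00000053560.6) is a short intronless gene for a nuclear protein of the growth factor response. It spans 1524 bp on the minus strand of chromosome 8, from 85387960 to 85389483, inside an interval of 7796 bp. The highest summit was 1276 bp upstream at 44.5-fold (41.2 to 47.9; 678 reads). Summits 31 bp upstream and 1173 bp into the gene, in the 3′ UTR, followed at 34.6-fold and 36.6-fold, and one 2226 bp upstream reached 27.2-fold. The upstream summit was above both the summit at the start (31.7 to 37.7) and the one in the 3′ UTR (33.6 to 39.8) beyond counting error, and these last overlapped each other.

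Egr1 (ENSMUSG00000038418.10) encodes a zinc finger factor, not a bZIP protein, that shares the serum response element route with Fos. It had 3 intervals. The start interval, 6872 bp wide with 17 summits, had 3 strong summits in the 5′ UTR of exon 1, of 41.8-fold at 109 bp, 58.1-fold at 716 bp and 59.8-fold at 1070 bp (56.0 to 63.8; 912 reads). Intron 1 reached 17.0-fold at 2524 bp. The other intervals reached 6.48-fold and 4.58-fold, with summits outside the counted stretch. Unlike at Fos and Jun, the highest values of Egr1 lay downstream of the annotated start, and none of the summits upstream of it reached 8-fold.

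The highest summit of the start interval differed in its position relative to the GENCODE 5′ end. It was upstream of that end at Fos, Jun, Junb, Jund and Ier2 and inside the gene at Fosb, Fosl1, Fosl2, Atf3 and Egr1. This split depends on the annotated start. In the interval over the canonical Atf3 start, the highest summit lay upstream of that start, and the Fosl2 summit lay before the RefSeq start. For Fosl1, Egr1 and Ier2 no RefSeq start was compared. Only at Jun, Jund and Fosl1 was the summit nearest to the GENCODE 5′ end also the highest. For this count and for the split, the share over all protein-coding start intervals was not calculated. With the nearest summit the median of the 10 genes was 36.0-fold, against 24.6-fold over the protein-coding genes with a start interval.

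Motifs were searched on both strands as exact letters: the CRE with the letters TGACGTCA, its core with TGACG, which every CRE also contains, the TRE with TGACTCA, the TATA box with the letters TATAAA, the GC box with GGGCGG, the CCAAT box as its name spells it, the Jun-type site with TGACATCA, and the CArG box. The RefSeq promoter table, 250 bases before to 50 after a start, held 7 of the 10 genes; promoters of Fosl1, Egr1 and Ier2 were not analysed here. A CRE core was in 4 of the 7 (Atf3, Fos, Fosb and Junb) and in 20.8% of 32851 promoters. A GC box was in 5 of the 7 (35.7% of promoters), a CCAAT box in 3 (37.4%), a TATA box in Fos and Junb (13.6%) and the Jun-type site in Jun (3.62%). The TATA box letters of Fos lie 33 to 28 bases before its RefSeq start, while those of Junb begin on the RefSeq start itself. The CRE (1.79%), TRE (5.20%) and CArG box (1.63%) had no match in these 7 windows. The CArG boxes of Fos and Fosb lie just beyond the 250 bases, which is where the summit windows show them. The Jund entry starts 1210 bp upstream of the GENCODE start and held none of the motifs. The median GC content of the 7 promoters was 64.7% and their median ratio of observed to expected CpG was 0.735, against 52.7% and 0.384 over all promoters.

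In windows of 201 bases around the highest summits of start intervals, the TRE was in 2 of the same 7 genes (Atf3 and Fosl2). It was in 3.61% of 13171 windows over protein-coding starts. The CArG box was in 1 of the 7 (Fos) and in 0.676% of those windows. The Atf3 window lay at the summit 1709 bp into the gene. The window at the highest summit of the canonical Atf3 start held no TRE. The TRE, the site that AP-1 dimers bind, was more often found away from starts. It was in 10.2% of 220045 windows with no transcript start within 1 kb and in 17.0% of the 42393 of them with at least 5-fold enrichment. By fold, its share was 7.02% under 3-fold, 14.2% from 3 to 5, 15.8% from 5 to 10, 18.5% from 10 to 20 and 21.3% at 20 or more. The CCAAT box over the same classes went from 23.0% to 21.9%, the CArG box from 0.899% to 0.989% and the CRE from 0.217% to 0.622%. These shares are descriptions of letters under summits, with no test, and say nothing of which protein is bound.

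**Figure D3:**
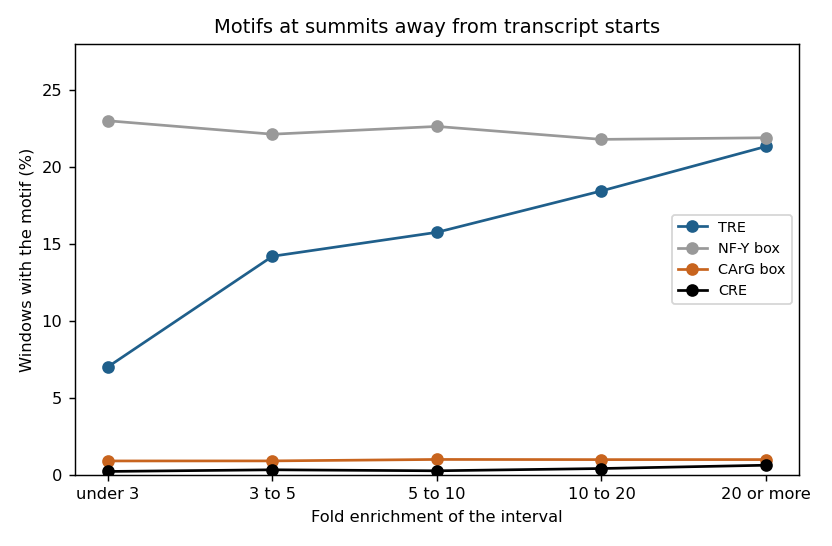
Share of 201-base summit windows that hold each motif (y axis, percent) by fold enrichment of the interval (x axis, 5 classes), for intervals with no transcript start within 1 kb. The TRE line goes from 7.02% to 21.3%, while the CCAAT box, drawn as the NF-Y box after the factor that binds it, stays between 21.8% and 23.0%.

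Some of the strongest open sites near these genes lay outside the counted stretch. Within 50 kb on either side, and leaving out intervals within 1 kb of a protein-coding transcript start, Fos had 38 further intervals, 10 of them of at least 5-fold. The strongest, chr12:85500269-85504949, with its summit 18460 bp upstream of Fos, reached 57.9-fold (54.1 to 61.8), higher than the start interval of Fos itself beyond counting error. A second, 12163 bp from the start, reached 40.7-fold. At Fosb, an interval 10076 bp upstream reached 56.6-fold (52.9 to 60.5), which overlaps the 50.6-fold of the Fosb start in counting error, and at Ier2 one 5845 bp from the start reached 45.8-fold (42.4 to 49.3), which overlaps the 44.5-fold of the Ier2 start in counting error. At Jun, Egr1 and Fosl2 the strongest were lower than the start interval, at 36.8-fold 30339 bp upstream, 42.8-fold at 27704 bp and 24.7-fold at 56857 bp. At Fosl1 the strongest, 17560 bp upstream at 25.0-fold, was above the start value of 10.3. Atf3 and Jund reached 19.4-fold and 24.5-fold, and at Junb 1 of 15 such intervals reached 5-fold, at 7.79. These intervals were not linked to the genes by any measurement here.

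The rest of the pathway was described by its start intervals. Among 13 other AP-1 partners and related bZIP genes, 12 had a start interval, with a median of 32.0-fold, the lowest at Batf3 (8.31) and the highest at Atf5 (71.4), a factor of the amino acid response. Batf, which acts in lymphocytes, had none over its start and 6 intervals elsewhere in its counted stretch. Among 18 other immediate early genes, 17 had one, with a median of 33.5-fold, from Egr4 (2.88) to Zfp36 (66.1), which encodes a protein that promotes decay of early transcripts. Npas4, an activity gene of neurons, had none over its start and 3 intervals elsewhere in its counted stretch. Among 12 upstream kinases and factors, 11 had one, with a median of 55.4-fold, from Elk3 (16.3) to Crem (91.1), a cAMP response factor, and the JNK gene Mapk10 had none over its annotated 5′ end, with 10 intervals elsewhere in the counted stretch and 7.07-fold at its canonical start. With starts at the annotated 5′ end, the 10 genes, with 52.4, thus had a median near that of the upstream factors. Both other lists were near the 31.6 of protein-coding genes with a start interval. Medians of the other lists at the canonical start were not calculated. The annotated 5′ end mattered here too: at the canonical start, the phosphatase gene Dusp6 had 78.0-fold in place of 6.29-fold, the antiproliferative gene Btg2 54.7-fold in place of 9.17-fold and Batf2 2.42-fold in place of 23.3-fold.

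**Figure D4:**
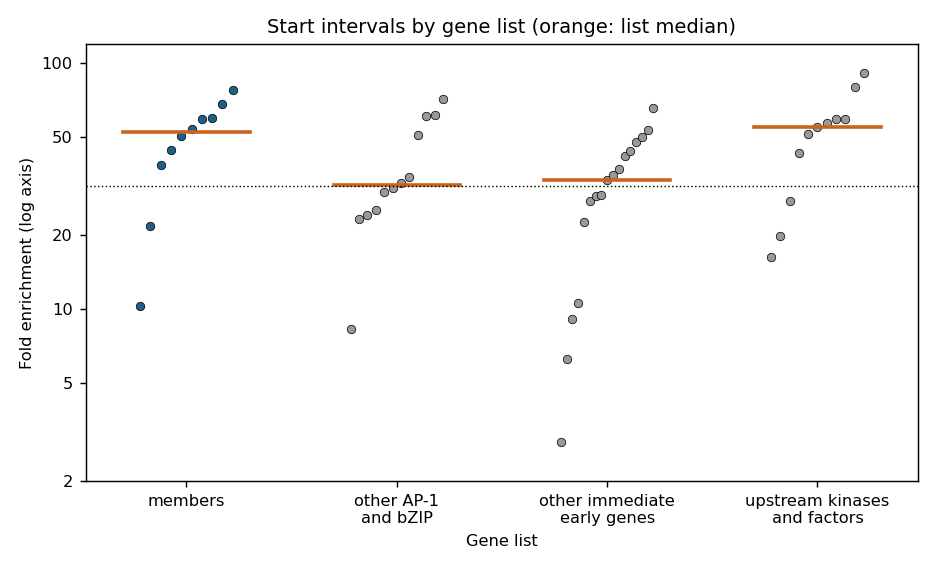
Fold enrichment of the start interval of each gene (y axis, log scale) in 4 gene lists (x axis); each point is 1 gene, the orange bars are list medians and the dotted line is the median over protein-coding genes with a start interval, 31.6. The medians are 52.4 for the AP-1 and immediate early genes examined, 32.0 and 33.5 for the related lists and 55.4 for the upstream kinases and factors.

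The tissue label was checked with cell type markers. All 5 proximal tubule markers had a start interval, with a median of 15.1-fold, from 1.70-fold at Hnf4a to 33.1-fold at Lrp2, the endocytic receptor. At its canonical start Hnf4a, a factor of proximal tubule identity, had 25.7-fold. A start interval was also present at all 3 markers each of the distal segments and of the collecting duct. The distal markers ran from 8.38-fold (Slc12a3) to 20.8-fold (Umod), and those of the collecting duct from 4.19-fold (Aqp2) to 28.4-fold (Scnn1g). Of the immune markers Cd68 (31.2) and Csf1r (20.3) had one and Ptprc had none, of the endothelial markers 2 of 3 and of the podocyte markers 2 of 3, without Pecam1 and Nphs1. At the canonical start, Nphs1 had 3.14-fold and Ptprc 1.90-fold, and Pecam1 again had none. The counted stretches of Ptprc, Pecam1 and Nphs1 held 10, 27 and 5 intervals. All 3 stromal markers had one, between 4.06-fold (Acta2) and 10.9-fold (Col1a1). Of 4 markers of other organs, Alb had 2.95-fold and Neurod1 2.49-fold. Myh6 and Ins2 had none over the start and 2 intervals each elsewhere in the counted stretch. The part of each cell type in the values of the 10 genes was not tested.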

How the data were processed

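Libraries were mapped to 3 WT and 3 Acly cKO samples from their labels. Per the study's methods, the authors used fastp for trimming and Bowtie2 2.3.4.3 for alignment to mm39, kept unique reads without duplicates, called peaks and summits with MACS3 3.0.0 and filtered blacklisted regions with bedtools 2.29.1. The deposited peak list gives at each summit a fold over background (a linear ratio), the −log10 of p and the −log10 of q, as the authors' caller wrote them, and the summit offset. The methods print the read shift with a positive sign, which would displace summits from the cut sites; the sign was not tested. These values do not give the depth of each library, which is unknown here.

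Rows were grouped into 279569 distinct intervals of 749750 summits, each taking its highest summit by q. Gene starts were the 5′ ends of GENCODE M39 genes. All folds (100.0%) were whole multiples of 1 step within 0.02 step, and the deposited −log10 p matched the Poisson tail at 718255 summits with values under 200. Sequences came from RefSeq promoters (GRCm38.p6) and the GRCm39 genome. Scripts used Python 3.11.15, numpy 2.4.6, pandas 2.3.3, scipy 1.17.1 and matplotlib 3.10.9 and were tested on simulated data. The members and lists were chosen with earlier results of these data known. Named were the 10 members, with their start interval and their other intervals of at least 3-fold or the 3 strongest, and the highest and lowest gene of each list; other named genes, summits and sequence windows were chosen after their values were seen.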

Additional observations from a re-analysis of the deposited data

How the results depend on the processing

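The count of 46 intervals depended on the stretch and unit counted: 11 lay within 1 kb of a gene start, 94 within 10 kb on either side of the genes, 20 had at least 5-fold enrichment, and 245 summits lay in the stretch counted. With q under 0.01 it was 44 and with q under 1e-05 it was 31. All 10 genes kept a start interval with a summit within 500 bp, q under 1e-05 or at least 5-fold. The median fold of 52.4 was 36.0 at the summit nearest to the start, 54.8 at the canonical start and, chosen after seeing the data, 40.2 at the highest summit within 500 bp of the start. The comparison median of 31.6 was 24.6 at the nearest summit, 31.8 at the canonical start and 31.4 over genes no longer than Atf3. The canonical start moved 1 of 10 genes (Atf3) and the nearest summit 7 of 10. The covered share of 91.8% was 89.1% with q under 1e-05. In summit windows 3 of 8 motif counts differed from those in promoters. Added after seeing the data were also the Jun-type site and the stretches of 50 kb around the genes. No paired analysis was possible because the list has no value for a single library.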

Other observations

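The summit list before the removal of blacklisted regions held 750624 summits against 749750 after it, and of the 245 summits in the counted stretches of the 10 genes, 0 were removed.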
